A study of Arabidopsis thaliana with 4 samples.

Results

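The *atbbd1* knock-out line was compared with wild type (WT) after osmotic stress, gene by gene, in leaf mRNA of *Arabidopsis thaliana*. Of 27655 genes in the deposited table, 15643 had at least 1 FPKM (fragments mapped to a transcript, scaled to its length and to the depth of the library) in *atbbd1* or in WT after polyethylene glycol (PEG) and were kept. Of these, 718 were at least 2-fold lower in *atbbd1* (4.59% of the genes kept), 135 were at least 2-fold higher (0.863%), and 14790 were neither. Ratios were ranked among genes with at least 10 FPKM in *atbbd1* or WT after PEG. There, the lower genes were led by plant defensins, clade A protein phosphatases, late embryogenesis abundant (LEA) proteins and lipid transfer proteins. The higher genes of that level were led by *MES18* and *CSD2*, at smaller ratios.

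Each condition was 1 library of leaves from plants of the Columbia ecotype, 3 weeks old and grown on soil in long days at 23 °C. The *atbbd1* plants carry a T-DNA insertion in *AtBBD1* (a single line), the OX5-4 plants an *AtBBD1* overexpression transgene that the labels name p35S:AtBBD1 (also a single line), and WT plants neither. All of these received water with 20% PEG for 6 h, an osmolyte that makes soil water harder to take up, and a second WT library was taken at 0 h without PEG. No library without PEG was taken at 6 h, so in WT at 0 h the effects of PEG and of time of day cannot be told apart. The clock gene *CCA1* was at 156.7 FPKM in WT at 0 h, against 3.55 FPKM in WT after PEG, and *TOC1* at 1.77 FPKM, against 52.7 FPKM. RNA of several leaves and plants was pooled per genotype, so the libraries average over plants but give no spread between them. Differences are therefore given by their size, with no p-value. No untreated *atbbd1* library is among the 4, so a difference from WT that was present before PEG cannot be told apart from one that arose under PEG. In bulk leaves, fewer cells of a type and less RNA per cell cannot be told apart either. OX5-4 and WT at 0 h are given only beside the values of *atbbd1* and WT after PEG, and WT with no time named is WT after PEG.

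*AtBBD1* encodes a bifunctional nuclease, first described in basal defence, and *AtBBD2* is its paralog. When leaves lose water, abscisic acid (ABA) accumulates and binds PYR/PYL receptors, which then hold back clade A protein phosphatases 2C (PP2Cs). SnRK2 kinases released from these phosphatases act on bZIP transcription factors of the ABF group, which switch on LEA proteins, dehydrins and other protective genes. Jasmonic acid (JA) acts through the JAZ repressors and MYC2, and jointly with ethylene it controls the PDF1.2 defensins.

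The number of reads behind each value was recovered from the FPKM and the exon lengths. Of the low values of single-transcript genes, 99.1% to 99.3% came out as whole reads, within 0.15 of a read. The estimated totals were 16994000 mapped fragments for *atbbd1*, 17692000 for OX5-4, 15731000 for WT after PEG and 15334000 for WT at 0 h. Ratios are given with an exact 95% binomial interval on these reads, which covers counting error only. Against a value listed at 0, the ratio is taken against a floor of 3 reads in that library and called a bound. The counting interval can reach below this bound. The median log2 ratio of *atbbd1* to WT over all genes kept was −0.11, a ratio of 0.927, so the list medians below are set beside −0.11. That median moved with level, from −0.17 under a mean of 2 FPKM to 0.10 at 100 FPKM or more. For lists of mostly weak or mostly abundant genes, −0.11 is thus only a rough reference.

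*AtBBD1* (AT1G75380) itself was at 36.6 FPKM (1162 reads) in *atbbd1*, against 541 FPKM (15887 reads) in WT after PEG. OX5-4 had 631 FPKM and WT at 0 h 95.5 FPKM. The library labelled *atbbd1* thus had the lowest *AtBBD1* value of the 4, 14.8-fold below WT after PEG (13.9 to 15.7), though not 0. *AtBBD2* (AT1G19660) was at 140.1 FPKM in *atbbd1*, against 198 FPKM in WT after PEG, 1.41-fold lower (1.36 to 1.47), and at 229 FPKM in OX5-4 and 68.6 FPKM in WT at 0 h. Of the 10 annotated neighbours of *AtBBD1*, 5 on each side, 8 were kept and none differed 2-fold. Their log2 ratios ran from −0.97 to 0.19. The lowest was that of AT1G75400, a RING/U-box gene at 5.71 FPKM in *atbbd1*, against 11.2 FPKM in WT after PEG, 1.95-fold lower (1.64 to 2.34), and the next was that of the homeodomain gene *BLH3* (12.0 FPKM in *atbbd1*, against 17.5 FPKM in WT).

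On the deposited values, the comparison leaned to lower values both in number and in size. At any size of difference 10050 genes were below WT (64.2%) and 5534 above (35.4%), with quartiles of the log2 ratio at −0.33 and 0.10. This excess depends on scaling, because median-of-ratios scaling, which evens out the typical gene between libraries, brought the median log2 ratio to −0.0047. Genes at least 2-fold lower still outnumbered those higher after that scaling, 605 against 171. The median log2 ratio was −1.50 among the lower genes and 1.22 among the higher genes. Counting genes listed at 0 at any fold, 199 genes were at least 4-fold lower (1.27% of those kept), 97 at least 8-fold (0.62%) and 60 at least 16-fold (0.384%). Higher by the same folds were 6 (0.0384%), 5 (0.032%) and 3 genes (0.0192%). With those genes at their bound instead, the counts were 198, 90 and 49 lower, and 3, 2 and none higher. The chloroplast genes ATCG00080 and ATCG01000, listed at 0 in WT, have no exon length here and thus no bound, and these counts leave them out. The 3 at least 4-fold higher were AT3G29633, an uncharacterized gene (2.65 FPKM in *atbbd1*, against 0.19 FPKM in WT), the glycine-rich protein gene *GRP9* (3.09 FPKM in *atbbd1*, against 0.33 FPKM in WT) and the F-box gene AT1G19070 (1.17 FPKM in *atbbd1*, against 0.25 FPKM in WT), all at low levels. Summed over the genes of each set, the lower genes came to 4003 FPKM in *atbbd1*, 20263 FPKM in OX5-4, 13083 FPKM in WT after PEG and 10615 FPKM in WT at 0 h. The higher genes came to 1117 FPKM in *atbbd1*, 618 FPKM in OX5-4, 469 FPKM in WT after PEG and 1147 FPKM in WT at 0 h. The median gene of the lower set was at 1.28 FPKM in *atbbd1*, 5.60 FPKM in OX5-4, 4.48 FPKM in WT after PEG and 3.36 FPKM in WT at 0 h. For the higher set the medians were 2.5 FPKM in *atbbd1*, 1.29 FPKM in OX5-4, 0.92 FPKM in WT after PEG and 2.26 FPKM in WT at 0 h. Both sets were chosen on *atbbd1* and WT after PEG, so these sums and medians are a description only.

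**Figure D1:**
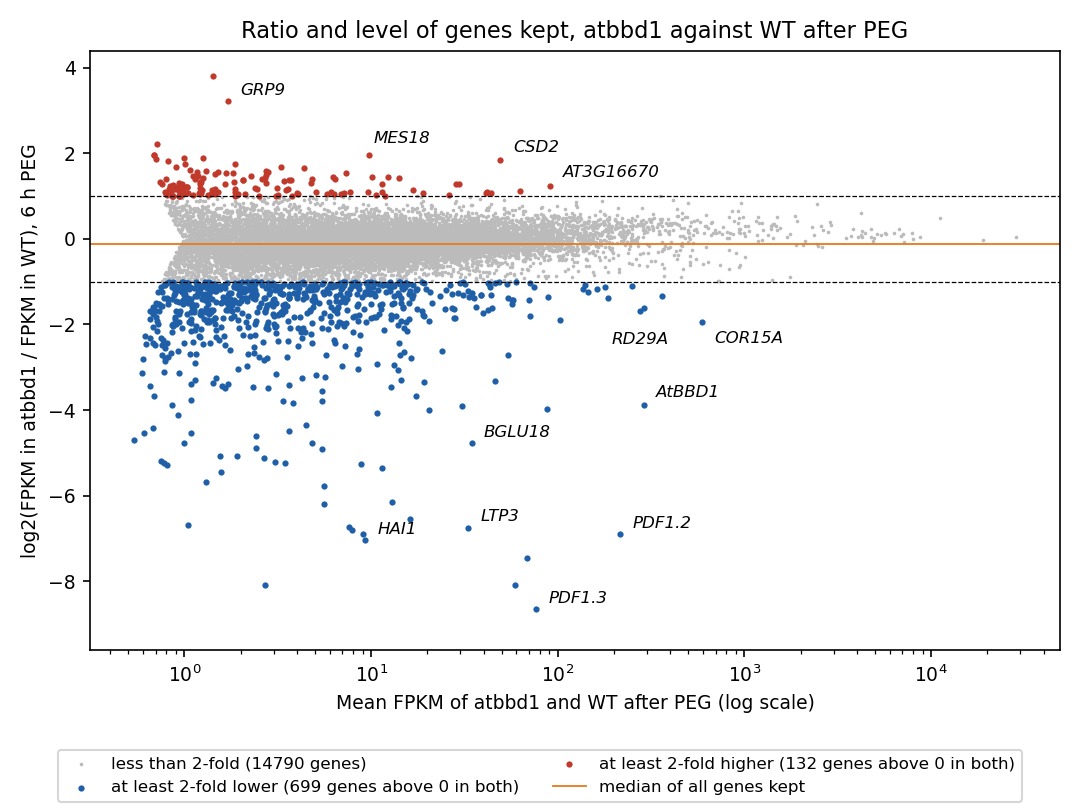
Each point is a gene kept and above 0 in both libraries, with the mean FPKM of *atbbd1* and WT after PEG on a log axis and the log2 ratio of *atbbd1* to WT on the vertical axis. Blue points are at least 2-fold lower, red points at least 2-fold higher, dashed lines mark 2-fold and the orange line the median of −0.11. The lower genes reach −8.65 and include genes above 100 FPKM, while the higher genes with at least 10 FPKM stay below 2 on the log2 scale.

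Most of the genes called were weakly expressed. Of the 1992 genes with a mean under 2 FPKM, 13.9% were lower and 3.87% higher, and of the 5269 genes with a mean of 10 to 50 FPKM, 2.35% were lower and 0.304% higher. From 100 FPKM on, 14 of 701 genes were lower and none was higher. The median log2 ratio also moved with level, at −0.17 in the lowest class and 0.10 in the highest. Counting error is widest at low levels, and the 95% interval lay beyond 2-fold for 88 of the 277 lower genes under 2 FPKM and for 14 of the 14 at 100 FPKM or more. Over all levels, the interval excluded 1 for 701 of the lower and 111 of the higher genes, and lay beyond 2-fold for 348 and 19. Of the genes with at least 10 FPKM in either library (7292 genes), 218 were lower and 22 higher. Genes with a shorter summed exon length were called more often in both directions. Of 3 classes of summed exon length, the shortest had 6.52% lower and 1.58% higher, the middle 4.18% and 0.578%, and the longest 3.01% and 0.289%. The shares of lower genes were closer together at 10 FPKM or more, at 3.41% in the shortest class, 2.79% in the middle and 2.63% in the longest. The 5 nuclear chromosomes had 4.32% to 4.77% of their genes lower.

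**Figure D2:**
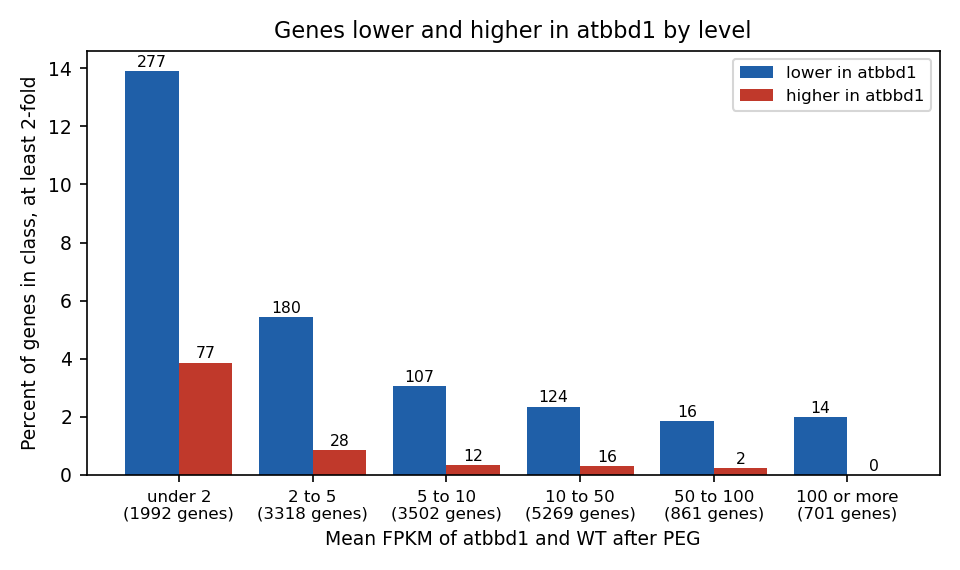
The bars give the percent of genes in each class of mean FPKM that were at least 2-fold lower (blue) or higher (red) in *atbbd1* than in WT after PEG, with the number of genes above each bar and the class size under the axis. The share of lower genes is 13.9% under 2 FPKM and 2.0% at 100 FPKM or more, and it exceeds the share of higher genes in every class.

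Of the genes with at least 10 FPKM, the 3 lowest ratios were those of plant defensins of the PDF1 family, small antimicrobial proteins secreted in defence. *PDF1.3* was at 0.38 FPKM (4 reads) in *atbbd1*, against 153 FPKM (1488 reads) in WT after PEG, and *PDF1.2* at 3.56 FPKM in *atbbd1*, against 426 FPKM in WT, 119.8-fold lower (86.0 to 172). *PDF1.2b* was at 0.77 FPKM in *atbbd1*, against 136 FPKM in WT, and *PDF1.2c* at 0.43 FPKM in *atbbd1*, against 118 FPKM in WT. In OX5-4, *PDF1.2*, *PDF1.3* and *PDF1.2b* were at 238, 63.9 and 45.1 FPKM, below WT after PEG, and *PDF1.2c* was at 133 FPKM, above it. In WT at 0 h the 4 genes were at 0 to 0.56 FPKM. The 4 defensins are near-identical copies that can share reads, so the split between them is uncertain. The other family members in the table, *PDF1.4* and *PDF1.5*, did not reach 1 FPKM in either library.

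The rest of the 15 lowest were genes of several kinds, among them phosphatase, LEA, lipid transfer protein and chitinase genes. *HAI1*, a clade A PP2C, was at 0.14 FPKM (5 reads) in *atbbd1*, against 18.5 FPKM (606 reads) in WT, 132-fold lower (55.8 to 405). *AFP1*, whose product binds the bZIP factor ABI5, was at 0.15 FPKM in *atbbd1*, against 18 FPKM in WT, and *RD29B*, a desiccation-responsive gene, at 0.14 FPKM in *atbbd1*, against 15.8 FPKM in WT. OX5-4 stood above WT after PEG in all 3, at 62.7, 55.7 and 87.7 FPKM. The lipid transfer protein genes *LTP3* and *LTP4*, a neighbouring pair of similar sequence that may share reads, were at 0.61 and 0.14 FPKM in *atbbd1*, against 65.6 and 15 FPKM in WT. *LTP4* had 2 reads in *atbbd1*, a ratio of 107 with an interval of 28.9 to 880. *DIP2* (AT5G03210) was at 0.34 FPKM in *atbbd1*, against 31.9 FPKM in WT, *HAI2* at 0.15 FPKM in *atbbd1*, against 11.0 FPKM in WT, and AT2G43570, a chitinase gene, at 0.36 FPKM in *atbbd1*, against 25.5 FPKM in WT. *LEA4-5* was at 0.20 FPKM (3 reads) in *atbbd1*, against 11.0 FPKM in WT, a ratio of 54.9 (18.9 to 275). In WT at 0 h these genes were between 0 and 1.95 FPKM. They reached 10 FPKM through WT after PEG, so a lower value in any other library is favoured by their choice.

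**Figure D3:**
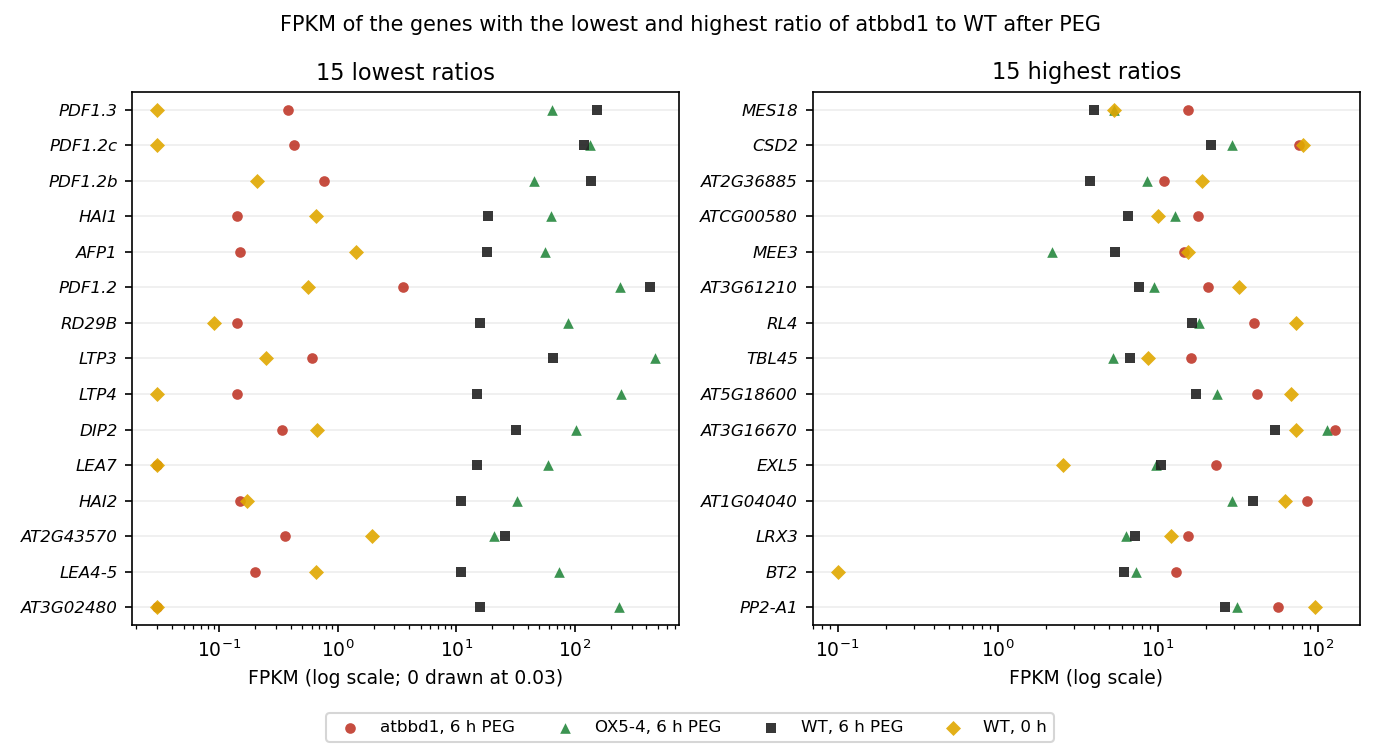
The FPKM (log axis) of the 15 genes with the lowest (left) and highest (right) ratio of *atbbd1* to WT after PEG, of those with at least 10 FPKM, in *atbbd1* (circles), OX5-4 (triangles) and WT (squares) after 6 h of PEG and in WT at 0 h (diamonds), with values of 0 drawn at 0.03. For the 15 lowest, *atbbd1* is at 3.56 FPKM or less and OX5-4 at 20.9 FPKM or more, while the 15 highest differ by at most 3.88-fold.

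Ranked by the fall in FPKM, the first 10 of the genes at least 2-fold lower were *AtBBD1*, *PDF1.2*, *PDF1.3* and 7 others. *COR15A*, which encodes a chloroplast protein that protects membranes in cold and drought, was at 245 FPKM in *atbbd1*, against 939 FPKM in WT after PEG, 3.84-fold lower (3.73 to 3.95). The dehydrin genes *ERD10* and *COR47* were at 142 and 159 FPKM in *atbbd1*, against 434 and 342 FPKM in WT, and *RD29A*, a drought and cold marker, at 131 FPKM in *atbbd1*, against 422 FPKM in WT. *LTP1* was at 206 FPKM in *atbbd1*, against 521 FPKM in WT, *RD22*, an ABA- and MYC2-dependent dehydration gene, at 104 FPKM in *atbbd1*, against 270 FPKM in WT, and *RD20*, a caleosin gene, at 10.5 FPKM in *atbbd1*, against 164 FPKM in WT. In WT at 0 h these 7 genes were at 6.17 to 312 FPKM, and in OX5-4 at 495 to 1698 FPKM. In *atbbd1*, *LTP1*, *RD22* and *RD20* were also below WT at 0 h (312, 154 and 69.2 FPKM), and the other 4 were above it. Some genes less than 2-fold lower had differences in FPKM as large, such as *ERD14* (319 FPKM in *atbbd1*, against 591 FPKM in WT).

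In all, 19 genes kept were listed at 0 in *atbbd1* and 3 in WT after PEG. The highest in WT were the LEA family genes AT3G02480 (15.7 FPKM) and *LEA7* (14.8 FPKM). Against the floor of 3 reads they were 49.0-fold (interval from 39.3) and 75.6-fold (interval from 61.0) lower in *atbbd1*. *MYC2*, the bHLH transcription factor at the centre of JA signalling, came next. It was listed at 0 in *atbbd1*, against 7.11 FPKM (368 reads) in WT after PEG, 132-fold lower against that floor (interval from 107). It was at 8.04 FPKM in OX5-4 and 3.51 FPKM in WT at 0 h. An exact 0 in an FPKM table can be a failed estimate, in which case no minimum fold holds, and this was not tested. Only *MYC2* and the uncharacterized AT3G05080 were listed at 0 in *atbbd1* alone while at 2 FPKM or more in the other 3 libraries. The same pattern was found for 1 gene in OX5-4, for none in WT after PEG and for 12 in WT at 0 h. The others among the 10 highest were *LBD1*, a LOB-domain gene (6.68 FPKM in WT), AT5G50360, a gene with a von Willebrand factor A domain (5.82), the outer membrane protein gene *TSPO* (5.36), the uncharacterized AT5G53710 (4.03), AT5G54165 (3.05) and *PR1* (2.47). *PR1*, a marker of salicylic acid defence, was listed at 0 in OX5-4 as well and was at 3.18 FPKM in WT at 0 h.

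The higher genes had ratios under 4 wherever the level reached 10 FPKM. *MES18*, a methyl esterase gene, led with 15.5 FPKM in *atbbd1*, against 3.99 FPKM in WT after PEG, 3.88-fold higher (2.94 to 5.19). *CSD2*, the chloroplast copper/zinc superoxide dismutase, was at 77.0 FPKM (1377 reads) in *atbbd1*, against 21.6 FPKM (357 reads) in WT, 3.57-fold higher (3.18 to 4.02). *CSD2* was at 29.1 FPKM in OX5-4 and 81.5 FPKM in WT at 0 h, so that *atbbd1* after PEG was near the level of WT at 0 h. AT2G36885, a gene annotated as a translation initiation factor, was at 11.0 FPKM in *atbbd1*, against 3.76 FPKM in WT, *MEE3*, a MYB-like gene, at 14.7 FPKM in *atbbd1*, against 5.42 FPKM in WT, and AT3G61210, a methyltransferase gene, at 20.6 FPKM in *atbbd1*, against 7.63 FPKM in WT. The small MYB-like gene *RL4* was at 40.2 FPKM in *atbbd1*, against 16.5 FPKM in WT, *TBL45*, of a family of cell wall acetyltransferases, at 16.2 FPKM in *atbbd1*, against 6.68 FPKM in WT, and AT5G18600, of the thioredoxin superfamily, at 42.1 FPKM in *atbbd1*, against 17.3 FPKM in WT. The remaining 6 nuclear genes of the 15 highest (AT3G16670, *EXL5*, AT1G04040, *LRX3*, *BT2* and *PP2-A1*) were 2.13- to 2.37-fold higher. The chloroplast gene ATCG00580 was at 18 FPKM in *atbbd1*, against 6.56 FPKM in WT, but has no exon length here and thus no interval.

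Among the genes at least 2-fold higher, the largest gains in FPKM were those of AT3G16670, of the Pollen Ole e 1 and extensin family (128 FPKM in *atbbd1*, against 54.2 FPKM in WT), *CSD2*, and AT1G04040, an acid phosphatase gene (86.1 FPKM in *atbbd1*, against 39.8 FPKM in WT). Next came the uncharacterized AT5G11070 (59.9 FPKM in *atbbd1*, against 28.3 FPKM in WT), *PP2-A1*, a lectin of phloem sap (56.6 FPKM in *atbbd1*, against 26.5 FPKM in WT), and AT3G05730, which encodes a defensin-like protein (55.6 FPKM in *atbbd1*, against 26.5 FPKM in WT). *SUC2*, the sucrose transporter that loads the phloem, was at 35.1 FPKM in *atbbd1*, against 17.1 FPKM in WT, 2.05-fold higher (1.85 to 2.27). *ARR6*, a response regulator of cytokinin signalling, was at 25.7 FPKM in *atbbd1*, against 12.2 FPKM in WT, 2.1-fold higher (1.82 to 2.43). Within the 2-fold sets, the 10 largest gains were of 13.5 to 74.0 FPKM and the 10 largest falls were differences of −695 to −152 FPKM. Abundant genes less than 2-fold higher had larger differences, such as AT1G23130 (472 FPKM in *atbbd1*, against 236 FPKM in WT).

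Most of the vascular markers kept lay above WT. Of the 12 kept, 11 were above WT (against 35.4% of all genes kept). By 2-fold or more, 2 of them were higher, *SUC2* and *PP2-A1* (against 0.863% of all genes kept). The median of the log2 ratios was 0.66, with a summed level of 206 FPKM in *atbbd1*, 140.4 FPKM in OX5-4, 127 FPKM in WT after PEG and 236 FPKM in WT at 0 h. The sugar exporters *SWEET11* and *SWEET12* were 1.65- and 1.48-fold higher, and the xylem genes *IRX5* and *XCP2* 1.52- and 1.53-fold. These xylem genes were weakly expressed, at 1.76 and 2.05 FPKM in *atbbd1*, against 1.16 and 1.34 FPKM in WT. The lowest ratios were those of *PP2-B10*, a phloem protein gene (19.2 FPKM in *atbbd1*, against 22.7 FPKM in WT), and *ATHB-8*, a procambium homeobox gene (3.61 FPKM in *atbbd1*, against 3.5 FPKM in WT). The 6 guard cell markers kept had a median of 0.07, with none called, from *TGG1*, a myrosinase gene (329 FPKM in *atbbd1*, against 398 FPKM in WT), and *SnRK2.6* to the bHLH gene *FAMA* (1.84 FPKM in *atbbd1*, against 1.55 FPKM in WT) and the potassium channel gene *GORK* (1.39 FPKM in *atbbd1*, against 0.87 FPKM in WT). Of 10 trichome markers, 2 were kept, *ETC2* (15.9 FPKM in *atbbd1*, against 13.1 FPKM in WT) and *MYB106* (1.38 FPKM in *atbbd1*, against 1.1 FPKM in WT). The others were under 1 FPKM in both libraries. Of these, *TRY* (0.20 FPKM in *atbbd1*, against 0.70 FPKM in WT), *CPC*, *GL2*, *ETC1*, *TTG2* and *EGL3* were below WT. *GL3* was above it and *GL1* at 0 in both, so the trichome markers gave no common direction. The photosynthesis genes of mesophyll had a median of 0.09, beside 0.10 over all genes with a mean of 100 FPKM or more. Of the root markers, 10 of 13 were at 0 in both libraries, and of the flower and meristem markers 6 of 13, and none of the members kept differed 2-fold. Kept were the root genes *WOX5* (1.23 FPKM in *atbbd1*, against 1.69 FPKM in WT) and *SCR* (5.97 FPKM in *atbbd1*, against 6.36 FPKM in WT) and the flower and meristem genes *AGL20* (71.6 FPKM in *atbbd1*, against 90.4 FPKM in WT) and *AG* (1.25 FPKM in *atbbd1*, against 0.95 FPKM in WT). The part of the vascular markers in the other differences was not tested.

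Of the 34 gene lists, which held 495 loci, 22 had a median below that of all genes kept, and 92 of the 374 loci kept were lower (against 4.59% of all genes kept) and 6 higher (against 0.863%). The lists were written around pathways known to respond to drought and around earlier results of these libraries, so their counts describe these genes and do not test a direction. The 626 other lower genes and the 129 other higher genes belonged to no list.

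**Figure D4:**
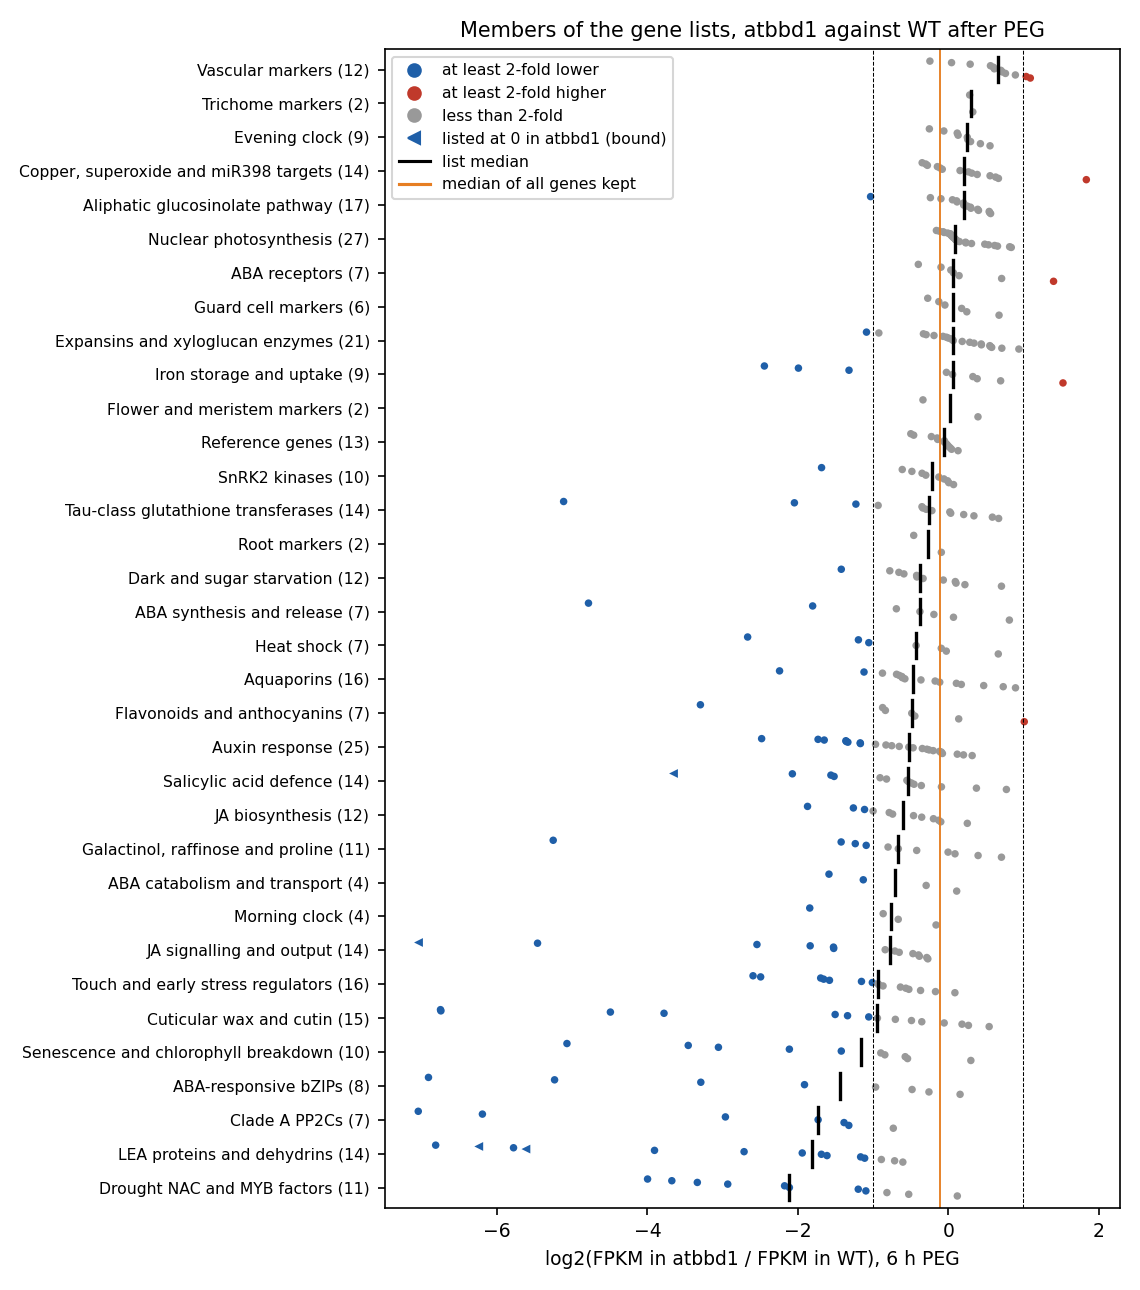
Each point is a member kept of a gene list, at its log2 ratio of *atbbd1* to WT after PEG, with the number kept in parentheses, black bars for list medians, the orange line for the median of all genes kept and dashed lines at 2-fold. Triangles are bounds for genes listed at 0 in *atbbd1*. The list medians run from −2.11 for the drought NAC, MYB and homeobox factors to 0.66 for the vascular markers.

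The steps of the ABA pathway differed in how far they were from WT. Among 7 genes of ABA synthesis and release, 2 were lower. These were *BGLU18*, a β-glucosidase that frees ABA from its glucose ester, at 2.42 FPKM in *atbbd1*, against 66.6 FPKM in WT (27.5-fold lower, 22.4 to 34.1), and *NCED3*, the rate-limiting dioxygenase (2.69 FPKM in *atbbd1*, against 9.38 FPKM in WT). *ABA2* and *AAO3*, of the last steps, were at 10.9 and 3.26 FPKM in *atbbd1*, against 10.4 and 4.23 FPKM in WT, and *BGLU33* at 1.81 FPKM in *atbbd1*, against 1.03 FPKM in WT. On the side of removal, *UGT71B6*, which conjugates ABA to glucose, and *CYP707A2*, an ABA 8′-hydroxylase, were lower at 0.55 and 0.91 FPKM in *atbbd1*, against 1.65 and 1.99 FPKM in WT, while *UGT71C5* and the transporter gene *NPF4.6* differed by less than 1.3-fold.

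None of 7 ABA receptors was lower, and their median was 0.07. *PYL4* was higher (9.32 FPKM in *atbbd1*, against 3.53 FPKM in WT) and *PYL7* had the lowest ratio (23.8 FPKM in *atbbd1*, against 31.3 FPKM in WT). Next to these were *PYL5* (3.78 FPKM in *atbbd1*, against 2.31 FPKM in WT) and *PYL8* (36.0 FPKM in *atbbd1*, against 38.5 FPKM in WT). Of the 10 SnRK2 kinases, 1 was lower, *SnRK2.7*, at 0.33 FPKM in *atbbd1*, against 1.06 FPKM in WT. The kinases *SnRK2.2*, *SnRK2.3* and *SnRK2.6*, which carry most of the ABA signal, were at 129.7, 32.8 and 5.99 FPKM in *atbbd1*, against 130.4, 34.1 and 6.53 FPKM in WT. *SnRK2.8* was at 1.29 FPKM in *atbbd1*, against 1.97 FPKM in WT, and the highest ratios were those of *SnRK2.10* (25.04 FPKM in *atbbd1*, against 24.9 FPKM in WT) and *SnRK2.9* (1.04 FPKM in *atbbd1*, against 0.99 FPKM in WT). Unlike these, 6 of 7 clade A PP2Cs were lower and all 7 below WT, with a median of −1.73. Beside *HAI1* and *HAI2*, *HAB1* was at 1.58 FPKM in *atbbd1*, against 12.3 FPKM in WT, 7.79-fold lower (6.11 to 10.06). The more abundant *PP2CA* and *ABI1* were at 29.9 and 25 FPKM in *atbbd1*, against 78.1 and 62.5 FPKM in WT, 2.61- and 2.5-fold lower. *HAB2* was the only one less than 2-fold lower (12.0 FPKM in *atbbd1*, against 20.0 FPKM in WT).

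The bZIP factors and their partners were uneven, with 4 of 8 lower and a median of −1.44. *AFP1*, *AFP3* and *GBF3* were 120.2-, 9.77- and 37.6-fold lower, and *ABF3* was at 8.6 FPKM in *atbbd1*, against 32.3 FPKM in WT. *ABF2*, *ABF4* and *ABF1* were 1.95-, 1.39- and 1.19-fold lower, and *AFP2* was at 6.46 FPKM in *atbbd1*, against 5.79 FPKM in WT. Among the LEA proteins and dehydrins 11 of 14 were lower and all 14 below WT, with a median of −1.81. *RAB18* and *XERO2*, at 57.5 and 24.7 FPKM in WT after PEG, were 15- and 6.56-fold lower in *atbbd1*. *ERD14*, *COR413IM1* and *COR15B*, at 591, 581 and 616 FPKM in WT, were 1.85-, 1.64- and 1.52-fold lower.

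The drought NAC, MYB and homeobox factors had the lowest list median, −2.11, with 8 of 11 lower. *NAC019*, *HB-7* and *HB-12*, regulators of the dehydration response, were at 2.42, 2.52 and 3.46 FPKM in *atbbd1*, against 38.6, 32.2 and 34.9 FPKM in WT. *MYB96*, which controls cuticular wax genes, was at 4.51 FPKM in *atbbd1*, against 9.63 FPKM in WT. *NAC102* and *MYB73* had the highest ratios of the list (20.4 FPKM in *atbbd1*, against 29.3 FPKM in WT and 24.4 FPKM in *atbbd1*, against 22.5 FPKM in WT). Of the osmolyte genes 4 of 11 were lower. *GolS2*, a galactinol synthase of raffinose synthesis, was at 0.45 FPKM in *atbbd1*, against 17.1 FPKM in WT, 38.1-fold lower (21.0 to 76.8), and *P5CS1*, of proline synthesis, at 38.2 FPKM in *atbbd1*, against 102 FPKM in WT. *ERD5*, the proline dehydrogenase, and *DIN10*, a raffinose synthase-like gene, had the highest ratios of that list, 1.32- and 1.63-fold above WT.

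In cuticular wax and cutin, 7 of 15 genes were lower. Beside the LTP genes, *WSD1*, the wax ester synthase, was at 0.31 FPKM in *atbbd1*, against 6.97 FPKM in WT, *KCS2*, which elongates fatty acids, at 0.46 FPKM in *atbbd1*, against 6.31 FPKM in WT, and *CER1*, of alkane synthesis, at 6.94 FPKM in *atbbd1*, against 19.7 FPKM in WT. *LACS2* and *LACS1*, acyl-CoA synthetases, had the highest ratios, at 1.2- and 1.46-fold above WT.

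JA synthesis had 3 of 12 genes lower and a median of −0.60. *AOC1*, an allene oxide cyclase, was at 6.82 FPKM in *atbbd1*, against 24.9 FPKM in WT, 3.66-fold lower (3.02 to 4.45), and *OPR3* and *LOX2* were 2.4- and 2.16-fold lower. *JAR1*, which makes the active JA-isoleucine, was at 15 FPKM in *atbbd1*, against 16 FPKM in WT, and *LOX6* at 5.20 FPKM in *atbbd1*, against 4.36 FPKM in WT. In JA signalling and output 6 of 14 were lower and all 14 below WT. Beside *MYC2*, *TAT3*, a tyrosine aminotransferase gene, was at 0.07 FPKM in *atbbd1*, against 3.08 FPKM in WT (44.0-fold, 13.9 to 205), and the repressor genes *JAZ9*, *JAZ1* and *JAZ6* were 3.57-, 2.88- and 2.87-fold lower. *MYC3* and *MYC4*, the close relatives of *MYC2*, were 1.31- and 1.63-fold lower, and *JAM2* and *JAZ3* had the highest ratios, at 1.21- and 1.22-fold lower.

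Of the salicylic acid defence genes 4 of 14 were lower. *PR2*, a β-1,3-glucanase, was at 2.11 FPKM in *atbbd1*, against 8.87 FPKM in WT after PEG, with 5.36 FPKM in OX5-4, and *PCC1* at 29.3 FPKM in *atbbd1*, against 83.9 FPKM in WT, with 13.7 FPKM in OX5-4. *NIMIN1* was at 0.38 FPKM in *atbbd1*, against 1.12 FPKM in WT, with an interval of 0.880 to 12.8 on the ratio of 2.95. *ICS1*, the isochorismate synthase of salicylic acid synthesis, and *GRXS13* had the highest ratios (3.10 FPKM in *atbbd1*, against 2.39 FPKM in WT and 1.06 FPKM in *atbbd1*, against 0.62 FPKM in WT). Of the senescence genes 5 of 10 were lower, among them *SAG13* (0.09 FPKM in *atbbd1*, against 3.02 FPKM in WT), *WRKY53* (0.39 FPKM in *atbbd1*, against 4.28 FPKM in WT) and *SAG21* (2.98 FPKM in *atbbd1*, against 24.8 FPKM in WT). The chlorophyll breakdown genes stood nearer to WT, with *PAO* at 38.7 FPKM in *atbbd1*, against 56.2 FPKM in WT, and *NYC1* at 130.4 FPKM in *atbbd1*, against 105.8 FPKM in WT. Of 12 genes of darkness and sugar starvation only *SEN1* was lower (31.4 FPKM in *atbbd1*, against 84.0 FPKM in WT), with *EXL2* next (7.31 FPKM in *atbbd1*, against 12.5 FPKM in WT) and *DIN6* and *DIN10* the highest.

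Touch and early stress regulators, many of them short-lived transcripts of zinc finger, CBF, WRKY and ERF factors, had 7 of 16 lower and a median of −0.93. *ZAT10* and *ZAT6* were 6.04- and 5.63-fold lower, and *CBF1*, *CBF2* and *CBF3*, neighbouring copies of the cold regulator that can share reads, were 3.24-, 2.99- and 2.22-fold lower. *ERF104*, 1.12-fold lower (0.841 to 1.51), and *WRKY46*, 1.06-fold higher (0.559 to 2.04), had the highest ratios, with intervals that held 1. In the auxin response 8 of 25 were lower, all of the *GH3*, *IAA* and *SAUR* families, such as *GH3.3*, which conjugates auxin (0.50 FPKM in *atbbd1*, against 2.79 FPKM in WT), *IAA5* (2.11 FPKM in *atbbd1*, against 7.0 FPKM in WT) and *IAA29* (8.49 FPKM in *atbbd1*, against 26.6 FPKM in WT). *IAA6* and *IAA18* had the highest ratios, 1.15- and 1.25-fold above WT. Of 16 aquaporins 2 were lower, *PIP2;3* (3.04 FPKM in *atbbd1*, against 14.4 FPKM in WT) and *PIP2B* (47.3 FPKM in *atbbd1*, against 103 FPKM in WT), a neighbouring pair of similar sequence. *TIP2;1*, of the vacuole membrane, was at 352 FPKM in *atbbd1*, against 212 FPKM in WT, and *PIP2;8* at 1.19 FPKM in *atbbd1*, against 0.64 FPKM in WT.

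Metal and redox genes gave calls in both directions. Of 14 genes of copper and superoxide metabolism none was lower, 1 (*CSD2*) was higher, and the median was 0.21. The cytosolic *CSD1* and the copper chaperone *CCS1*, which like *CSD2* are targets of the microRNA miR398, were at 51.7 and 26.8 FPKM in *atbbd1*, against 32.6 and 17.3 FPKM in WT, 1.59- and 1.55-fold higher. The peroxisomal *CSD3* was at 55.2 FPKM in *atbbd1*, against 60.9 FPKM in WT, and the copper transporter genes *COPT2* and *COPT1* had the lowest ratios of the list. Of 9 iron genes 3 were lower and 1 higher. *NAS1* and *NAS3*, nicotianamine synthases of metal transport, were at 0.25 and 1.22 FPKM in *atbbd1*, against 1.36 and 4.85 FPKM in WT, *NAS4* at 2.16 FPKM in *atbbd1*, against 0.75 FPKM in WT, and among the ferritins *FER1* was at 9.65 FPKM in *atbbd1*, against 24.1 FPKM in WT, while *FER3* was at 16.8 FPKM in *atbbd1*, against 10.4 FPKM in WT. Members of 1 family thus stood on both sides of WT. Of the tau-class glutathione transferases 3 of 14 were lower. *GSTU4* was at 0.15 FPKM in *atbbd1*, against 5.19 FPKM in WT, and *GSTU17* at 2.79 FPKM in *atbbd1*, against 11.5 FPKM in WT, while *GSTU20* and *GSTU26* were 1.5- and 1.59-fold higher.

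Other lists held few calls. In the aliphatic glucosinolate pathway 1 of 17 genes was lower (*MAM3*, 0.90 FPKM in *atbbd1*, against 1.84 FPKM in WT), with a median of 0.21 and with *CYP79F1* and *CYP79F2* highest, and *SUR1* was 1.18-fold lower. Of 7 flavonoid genes the anthocyanin regulator *MYB75* was lower (0.21 FPKM in *atbbd1*, against 2.06 FPKM in WT), *FLS1* higher (1.27 FPKM in *atbbd1*, against 0.63 FPKM in WT), *CHI* 1.83-fold lower and *CHS* at 4.98 FPKM in *atbbd1*, against 4.52 FPKM in WT. Of 7 heat shock genes 3 were lower (*HSP70*, *HSFB1* and *HSP90.1*, all under 5 FPKM), *HSP101* was the highest at 1.59-fold above WT and *ROF2* next (2.26 FPKM in *atbbd1*, against 2.3 FPKM in WT). Of 21 expansins and xyloglucan enzymes *XTH24* was lower (4.38 FPKM in *atbbd1*, against 9.30 FPKM in WT) and *XTH6* the highest (50.6 FPKM in *atbbd1*, against 26.4 FPKM in WT), with *TCH4* (2.85 FPKM in *atbbd1*, against 5.4 FPKM in WT) and *XTH31* (64.3 FPKM in *atbbd1*, against 39.3 FPKM in WT) next to them. Under median-of-ratios scaling none of these 21 was lower and 1 was higher, and none of the 17 glucosinolate genes was lower.

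The clock lists parted in direction. Of 4 morning genes *PRR9* was lower, at 2.34 FPKM in *atbbd1*, against 8.38 FPKM in WT after PEG, and *CCA1* was 1.82-fold and *LNK1* 1.58-fold lower, with a median of −0.76 and with *LNK2* the highest (24.9 FPKM in *atbbd1*, against 27.8 FPKM in WT). The 9 evening genes had a median of 0.25 and no call, from *ZTL* (1.19-fold lower) and *GI* (38.2 FPKM in *atbbd1*, against 39.7 FPKM in WT) to *LUX* (17.3 FPKM in *atbbd1*, against 12.8 FPKM in WT) and *ELF4* (114 FPKM in *atbbd1*, against 77.6 FPKM in WT). None of 27 nuclear photosynthesis genes differed 2-fold. The antenna genes lay near WT, with *LHCB1.3*, the most abundant, at 28730 FPKM in *atbbd1*, against 28005 FPKM in WT, and the lowest ratios of the list those of *LHCB2.1* (2345 FPKM in *atbbd1*, against 2614 FPKM in WT) and *LHCB4.2* (2351 FPKM in *atbbd1*, against 2553 FPKM in WT). The Rubisco small subunit genes, near-identical copies, lay above WT, from *RBCS1A* (13096 FPKM in *atbbd1*, against 9347 FPKM in WT) to *RBCS2B* (3137 FPKM in *atbbd1*, against 1781 FPKM in WT) and *RBCS1B* (641 FPKM in *atbbd1*, against 359 FPKM in WT, 1.79-fold). Of 13 reference genes none differed 2-fold, and their median was −0.05, or 0.06 under median-of-ratios scaling. *ACT8* and *UBQ10* were 1.41- and 1.37-fold lower and *EIF4A1* 1.1-fold higher, with *TUB4* next (142 FPKM in *atbbd1*, against 137 FPKM in WT).

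Grouping the genes kept by a shared product name gave 139 families of at least 10 members, whose counts of calls are set against 4.59% lower and 0.863% higher among all genes kept. The family with the largest share of lower members was the integrase-type DNA-binding superfamily, which holds ERF and DREB factors, with 7 of 33 lower and 1 higher. *ERF53* was at 0.70 FPKM in *atbbd1*, against 4.82 FPKM in WT, and AT4G28140 at 1.15 FPKM in *atbbd1*, against 6.01 FPKM in WT. Next were the calcium-binding EF-hand family with 5 of 24 lower, which includes AT2G46600 (100.4 FPKM in *atbbd1*, against 225 FPKM in WT), and the heavy metal transport and detoxification superfamily with 4 of 23, which includes *HIPP22* (listed at 0, against 1.85 FPKM). Remorins had 2 of 12 lower, with AT2G41870 at 22.3 FPKM in *atbbd1*, against 55.5 FPKM in WT, and SAUR-like auxin-responsive proteins 5 of 38. The shares of higher members were largest for glutaredoxins, with 3 of 15 higher, and for the Pollen Ole e 1 and extensin family, with 2 of 11, AT3G16670 and its neighbour AT3G16660 (14.4 FPKM in *atbbd1*, against 6.99 FPKM in WT). The thioredoxin superfamily had 4 of 32 higher and 1 lower. Of its higher calls, the intervals of AT4G15690 (0.824 to 6.08), AT3G62930 (0.948 to 5.36) and AT4G15700 (0.886 to 6.41) held 1. That of AT5G18600 (2.09 to 2.83) did not. Among the glutaredoxins called, the interval of AT1G06830 (0.952 to 4.57) held 1, while those of AT2G47880 (1.42 to 3.10) and AT3G21460 (1.61 to 3.96) did not. These families were ranked by their share of calls, so the shares are descriptive. Of 819 uncharacterized proteins 66 were lower and 16 higher, beside 4.59% and 0.863% of all genes kept. Weakly expressed genes were called more often, with 13.9% lower and 3.87% higher under a mean of 2 FPKM. Neither the families nor the uncharacterized proteins were matched for level, so group and level cannot be told apart in these shares.

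Of 62 chloroplast-encoded genes kept 8 were higher (12.9%, against 0.863% of all genes kept) and 1 was lower, with a median log2 ratio of 0.24. Of 15 mitochondrial genes 5 were lower (33.3%, against 4.59% of all genes kept) and none higher. These genes have no exon length here, so their counting error is not known. All genes summed to 646183 FPKM in *atbbd1* and 632857 FPKM in WT after PEG, and nuclear genes alone to 645127 and 632043 FPKM. The libraries were made for mRNA. How much organelle RNA each library took up and the level of these genes in the plant therefore cannot be told apart.

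At the edges of the rule, *OPCL1* was just outside the lower set (7.47 FPKM in *atbbd1*, against 14.9 FPKM in WT, 1.997-fold lower), *MYB51* just inside (1.62 FPKM in *atbbd1*, against 3.24 FPKM in WT), AT1G23130 just outside the higher set (472 FPKM in *atbbd1*, against 236 FPKM in WT) and AT3G45390 just inside (1.14 FPKM in *atbbd1*, against 0.57 FPKM in WT). At 1 FPKM, *MUG3* was left out (0.87 FPKM in *atbbd1*, against 0.99 FPKM in WT) and *ZIP5* kept (1.00 FPKM in *atbbd1*, against 0.79 FPKM in WT).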

How the data were processed

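Total leaf RNA was made into mRNA libraries with a TruSeq kit, 1 library for each of 4 conditions. The deposited values are FPKM per gene that the authors obtained from Cufflinks on reads aligned to TAIR10. The study's methods name HISAT2 and the submitters' processing notes TopHat2, while use of strand was not stated, so overlapping and antisense genes can share reads. Gene names and union exon lengths came from the TAIR10.1 RefSeq annotation, and no coordinates are given because the build differs. Reads were recovered as FPKM × exon length × total, with the total at which values of up to 40 reads came closest to whole numbers (within 0.15). Genes of at least 1 FPKM in *atbbd1* or WT after PEG were kept and called at a 2-fold ratio with no pseudocount. The procedure was also run on simulated libraries with counting error only. These held no spread between plants and no reads shared between genes, so they cannot bear on either. Named were *AtBBD1*, *AtBBD2* and 10 neighbours, the 15 lowest and 15 highest ratios of at least 10 FPKM, the 10 largest falls and gains among genes called, the 10 highest genes listed at 0 in *atbbd1*, and the 2 lowest and 2 highest members of each list. Members, lists and alternatives were chosen with earlier results of these data known, and some other genes were named once their values were known. Scripts used Python 3.11.15, numpy 2.4.6, pandas 2.3.3 and scipy 1.17.1. Promoter motifs were not analysed here.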

Additional observations from a re-analysis of the deposited data

How the results depend on the processing

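The counts moved most with the threshold and the treatment of weakly expressed genes. Without a filter 1459 genes were lower and 538 higher, with a filter of 5 FPKM 336 and 39, with 1 added to each FPKM 386 and 35, and at a 4-fold threshold 199 and 6, where genes listed at 0 count at any fold. Limited to genes whose counting interval lies beyond 2-fold, chosen after seeing the data, the counts were 348 and 19. Median-of-ratios scaling gave 605 lower and 171 higher, a common sum of nuclear FPKM 747 and 120, 0.1 added to each FPKM 673 and 110, and leaving out organelle genes 712 and 127. The median log2 ratio of all genes was −0.10 with the filter of 5 FPKM, −0.093 with 1 added, −0.0047 under median-of-ratios scaling and −0.14 with the common sum. Of 34 list medians 1, that of the reference genes, changed sign under median-of-ratios scaling. That scaling moves all measured log2 ratios by the same small amount, so only a median just below no difference could change sign. The scaling took 1 lower call each from the drought factor, osmolyte, wax, touch, glucosinolate, heat shock and expansin lists, and gave the last 1 higher call. The 50 named genes also kept their direction, but this was fixed in advance. Adding 1 to both values cannot turn a ratio around, and the ratios of these genes all exceeded the shift of the scaling. No paired analysis was possible because each condition has 1 library, and no library could be left out. Counting error limits genes under about 2 FPKM most, and the spread between plants is unknown.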

Other observations

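Cytokinin genes were in none of the lists and were looked up after some of them had been seen among the higher genes, so their count is a description of a set chosen by its values. Cytokinins are made by isopentenyltransferases (IPT), bound by histidine kinases (AHK2, AHK3 and WOL) and relayed through phosphotransfer proteins (AHP) to response regulators (ARR), of which the type-A members are induced by the hormone and dampen it. Of 25 loci 18 were kept, and 5 were at least 2-fold higher in *atbbd1* than in WT after PEG (against 0.863% of all genes kept). None was lower (against 4.59% of all genes kept), and the median log2 ratio was 0.44. *IPT3* was at 2.97 FPKM in *atbbd1*, 1.29 FPKM in OX5-4, 1.14 FPKM in WT after PEG and 6.26 FPKM in WT at 0 h. The receptor gene *WOL* was at 5.4 FPKM in *atbbd1*, against 2.07 FPKM in WT after PEG, and *AHP1* at 1.97 FPKM in *atbbd1*, against 0.53 FPKM in WT. *ARR15* was at 7.04 FPKM in *atbbd1*, against 2.65 FPKM in WT, with 31.6 FPKM in WT at 0 h. The other receptors, *AHK2* and *AHK3*, were at 8.47 and 15.5 FPKM in *atbbd1*, against 7.34 and 17.9 FPKM in WT, and *AHP2* at 38.7 FPKM in *atbbd1*, against 39.0 FPKM in WT. The more abundant type-A regulators *ARR4* and *ARR7* lay above WT by less than 2-fold, at 66.0 and 41.5 FPKM in *atbbd1*, against 43.4 and 29.5 FPKM in WT.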
